A study of Rattus norvegicus with 24 samples.

Results

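Interferon-stimulated genes were followed in tibialis anterior, the ankle dorsiflexor, of 12 aged male Fischer 344 rats (23 ± 1 months). The genes were 9 members chosen by symbol, with earlier results of these data known: Isg15, Irf7, Irf1, Mx1, Mx2, Ifit2, Ifit3, Rsad2 and Bst2. All 9 were found among the 13458 symbols of the table, and 14 rows carried 1 of these symbols because Mx1 had 6 transcript rows. In 9 rats the left common peroneal nerve was silenced with tetrodotoxin (TTX), a sodium channel blocker delivered from an osmotic pump through a nerve cuff. The left limbs were taken after 6 to 7 days of TTX (atrophy, n = 3), after the same block and 9 days without TTX (recovery, n = 3), or after a second block of 5 to 6 days that followed recovery (repeated atrophy, n = 3). Their 9 untreated right limbs were the control. A further 3 rats had the surgery without TTX (sham left and sham right, n = 3 each), and each of these 3 carried a different time label, so rat and time point cannot be told apart within them. Only the left nerve was cuffed and blocked, so a right limb shared its animal's circulation with a treated limb. Every sample was whole muscle, in which a greater number of cells of a type and more RNA per cell cannot be told apart.

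Interferons are secreted when cells sense foreign or misplaced nucleic acid, or when lymphocytes are activated. Type I interferons bind the Ifnar1 and Ifnar2 receptor chains, and the kinases Jak1 and Tyk2 then activate a complex that holds Stat2 and Irf9 and binds the interferon-stimulated response element (ISRE) of their target genes. Interferon gamma acts through Ifngr1 and Ifngr2 and on the gamma-activated site (GAS). Among the members, Irf7 and Irf1 are transcription factors that amplify the response. The others are effectors: Isg15 is a ubiquitin-like modifier, Mx1 and Mx2 are dynamin-like antiviral GTPases, Ifit2 and Ifit3 act on viral RNA and translation, Rsad2 (viperin) makes an antiviral nucleotide, and Bst2 (tetherin) holds budding virus at the cell surface.

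The promoters are shown first to give the letters of both elements where the members hold them. RefSeq promoter sequences on GRCr8 (250 bases before and 50 after the start) were matched for 6 of the 9 members; Isg15, Ifit2 and Mx2 were not matched. The bases from 160 to 21 before the start are printed for 5 of them, 5′ to 3′ on the gene's strand, with motif matches on either strand in capitals. The ISRE core was searched as 2 runs of GAAA with 2 bases of any kind between them, and GAS as TTCNNNGAA.
Irf7, chr1:205800044-205800183, minus strand: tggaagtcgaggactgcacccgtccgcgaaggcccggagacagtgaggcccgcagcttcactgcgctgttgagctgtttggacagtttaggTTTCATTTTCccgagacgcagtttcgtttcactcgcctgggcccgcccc
Ifit3, chr1:241527166-241527305, plus strand: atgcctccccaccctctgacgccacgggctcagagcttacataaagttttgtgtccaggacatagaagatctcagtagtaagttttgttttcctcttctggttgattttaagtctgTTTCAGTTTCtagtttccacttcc
Rsad2, chr6:48788141-48788280, minus strand: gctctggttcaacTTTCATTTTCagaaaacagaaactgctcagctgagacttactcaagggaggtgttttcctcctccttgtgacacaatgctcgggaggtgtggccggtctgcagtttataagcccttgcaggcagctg
Bst2, chr16:18254988-18255127, minus strand: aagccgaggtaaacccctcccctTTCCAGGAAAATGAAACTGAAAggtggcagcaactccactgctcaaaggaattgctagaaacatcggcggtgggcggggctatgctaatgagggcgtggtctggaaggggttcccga
Irf1, chr10:38417775-38417914, plus strand: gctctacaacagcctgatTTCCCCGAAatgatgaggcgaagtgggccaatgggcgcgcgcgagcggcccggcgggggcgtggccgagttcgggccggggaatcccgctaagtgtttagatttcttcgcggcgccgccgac

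Of the 6 matched promoters, 4 held an ISRE core (Irf7, Ifit3, Rsad2 and Bst2), against 3.92% of all 33469 promoters. A GAS match was present in 2 of the 6 (Irf1 and Bst2), against 8.87% of all. In Bst2 the capitals are 1 GAS match and 2 ISRE cores that overlap, and the Mx1 window held neither motif. Among the 38 other type I interferon-stimulated genes on a list of pathway genes that had a row, 20 of 33 matched promoters held the ISRE core (60.6%). A match describes these letters only.

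In the 9 control limbs the members spanned a range of RNA levels. Per kilobase of transcript, Bst2 had the highest level (27.0 ± 8.06 CPM per kb, mean ± SD, n = 9), followed by Irf1 (7.13 ± 2.15) and Ifit2 (4.20 ± 0.910). Ifit3 (3.03 ± 0.860), Irf7 (2.59 ± 0.809) and Isg15 (2.23 ± 0.743) followed and did not differ from their neighbours in this order beyond the spread. Mx2 (1.45 ± 0.296), Mx1 with its 6 rows summed (0.859 ± 0.331) and Rsad2 (0.764 ± 0.332) were lowest, and the last pair overlapped. CPM is a row's count scaled to a library total of 1000000, and below it is given without the division by length.

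**Figure D1:**
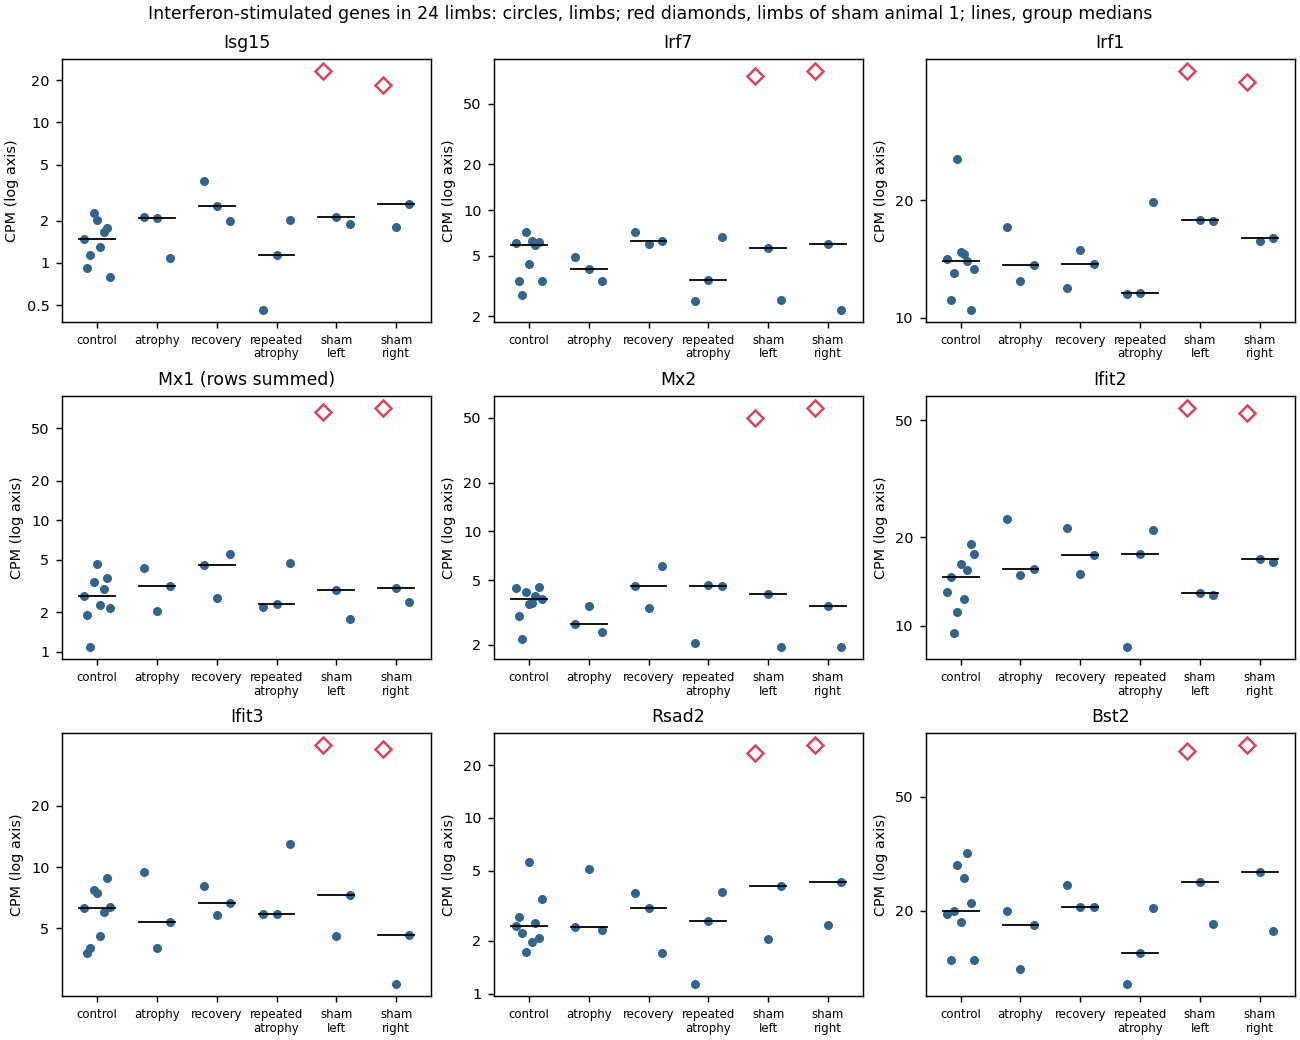
CPM of each member (log axis; Mx1 with its rows summed) in every limb by group; circles are limbs, lines are group medians and red diamonds are both limbs of sham animal 1. In each panel both diamonds sit above the other 22 limbs, while control, atrophy, recovery and repeated atrophy limbs overlap.

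Atrophy, recovery and repeated atrophy vs. control asked whether disuse or its end changed the members. None of the 9 passed the test (fold change of at least 1.2 and adjusted p of at most 0.05, limma across all rows) in any of the 3 comparisons, where 22.6%, 7.73% and 34.3% of the 14031 rows tested passed. These shares rested on single rats and, in atrophy and recovery, on how the rat was modelled. In atrophy vs. control, 3171 rows passed in the full fit, 1 without atrophy animal 1, 1830 without atrophy animal 3, 2072 without recovery animal 1 and 4841 without atrophy animal 2. In recovery vs. control, 1084 passed in the full fit, 184, 457 and 537 without recovery animals 1, 2 and 3, and 622 without repeated atrophy animal 2. In repeated atrophy vs. control, 4812 passed in the full fit and 2573 without repeated atrophy animal 2. With the rat as a fixed block, which sets left against right limb within each rat, the counts were 0, 9 and 3806 in limma, with 2678, 2521 and 5588 rows at an unadjusted p under 0.05. With the rat as a random effect (estimated correlation of its limbs 0.108), they were 3170, 1174 and 5042. No member passed in any of these fits. The number of members with an unadjusted p under 0.05 was 0, 1 and 0 in the full fit without a block. The median log2 fold change (log2FC) of the 9 was 0.00, 0.17 and -0.12, beside 0.22, 0.02 and 0.20 for all rows. With libraries rescaled by a trimmed mean, which set the all-row median to -0.00, 0.01 and -0.01, 1 member, Bst2, passed in repeated atrophy vs. control, where 25.3% of all rows then passed.

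Neither regulator passed in any comparison with control. Irf7 was at 4.93, 4.11 and 3.42 CPM in the atrophy limbs, at 7.19, 6.02 and 6.27 CPM in recovery and at 2.51, 3.48 and 6.64 CPM in repeated atrophy. The control limbs ran from 2.77 to 7.22 CPM with a median of 5.90 CPM, so every treated limb but that of repeated atrophy animal 1 lay inside the control range. Its log2FC vs. control was -0.20 in atrophy (95% interval -0.74 to 0.34), 0.35 in recovery (-0.20 to 0.89) and -0.25 in repeated atrophy (-0.79 to 0.29). Irf1 stood at 17.1, 12.4 and 13.6 CPM in atrophy, 11.9, 14.9 and 13.8 CPM in recovery and 11.5, 11.6 and 19.8 CPM in repeated atrophy. The control limbs ran from 10.5 to 25.6 CPM (median 13.97 CPM). That highest value was 1 limb, the right limb of repeated atrophy animal 3, and the next control limb was at 14.7 CPM, so the limbs at 17.1, 14.9 and 19.8 CPM exceeded each of the other 8 control limbs.

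Isg15 had the largest fold change of the members in recovery. It was at 3.85, 2.54 and 1.99 CPM in the recovery limbs, against a lowest, median and highest control of 0.790, 1.49 and 2.26 CPM. The upper 2 recovery limbs exceeded every control limb and the third lay within the control range. The log2FC was 0.61 ± 0.23 (SE; 95% interval 0.13 to 1.08), with an unadjusted p of 0.015 and an adjusted p of 0.102 (limma), so it did not pass. Within the animals, the left limb was higher than the right in 3 of 3 recovery rats, by 0.53 ± 0.49 (SD) on the log2 scale, and in 3 of 3 atrophy rats, by 0.19 ± 0.15. In repeated atrophy Isg15 was at 0.461, 1.13 and 2.02 CPM, lower than the right limb in 3 of 3 rats by a mean of -0.17 ± 0.20.

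The comparison of repeated atrophy with recovery gave the 1 call among the members, beside 27.2% of all rows. Isg15 was lower in repeated atrophy, with a log2FC of -0.82 ± 0.28 (95% interval -1.40 to -0.23, adjusted p = 0.037, limma). The groups overlapped, since the highest repeated atrophy limb (2.02 CPM) was above the lowest recovery limb (1.99 CPM). The call did not hold when the replicate block (the rat, since both limbs of a rat were paired) was a fixed term (-0.70 ± 0.30, adjusted p = 0.226), and held with the rat as a random effect (-0.80 ± 0.27, adjusted p = 0.036, limma). It was also lost without recovery animal 1, recovery animal 2, repeated atrophy animal 1 or repeated atrophy animal 2, with adjusted p from 0.088 to 0.178. Other members passed in this comparison under other settings. Bst2 was lower after trimmed-mean rescaling (-0.87, adjusted p = 0.0455, beside 21.7% of all rows) and after quantile normalization (-0.89, adjusted p = 0.0457), and Irf7 without repeated atrophy animal 3 (-0.92, adjusted p = 0.0484, limma). No member passed in recovery vs. atrophy, where 17.9% of rows did, nor in repeated atrophy vs. atrophy, where 0.0356% did. The last share was 5 rows, which became 36 without atrophy animal 1, 26 without repeated atrophy animal 1, 3 without atrophy animal 2, atrophy animal 3 or recovery animal 2, 2 without repeated atrophy animal 2, and 0 in limma without recovery animal 1, without repeated atrophy animal 3 or with the rat as a fixed block (781, 893 and 790 rows at an unadjusted p under 0.05). With the fixed block, 12 rows passed in repeated atrophy vs. recovery (3823 without it, 3666 with the random effect) and 2 in recovery vs. atrophy (2505 without it, 2035 with the random effect). Without any block, the count in repeated atrophy vs. recovery was 2108 without recovery animal 1, 1844 without recovery animal 2 and 2437 without repeated atrophy animal 2. In recovery vs. atrophy it was 1023 without atrophy animal 1, 1243 without atrophy animal 3, 444 without recovery animal 1 and 398 without recovery animal 2.

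Bst2 had the most negative fold change in repeated atrophy. Its levels were 11.1, 14.3 and 20.4 CPM there, 19.9, 12.5 and 17.8 CPM in atrophy and 24.5, 20.6 and 20.6 CPM in recovery. The control limbs spanned 13.4 to 31.8 CPM with a median of 19.9 CPM, and 1 repeated atrophy limb (11.1 CPM) and 1 atrophy limb (12.5 CPM) lay below that range. The log2FC in repeated atrophy vs. control was -0.45 ± 0.24 (95% interval -0.96 to 0.06, adjusted p = 0.164). After rescaling it was -0.81 ± 0.25 (adjusted p = 0.021) and passed. Within the animals, the left limb was lower in 3 of 3 repeated atrophy rats, by a mean of -0.40 ± 0.12 (SD) on the log2 scale, and in 3 of 3 recovery rats, by a mean of -0.24 ± 0.31. With the rat as a fixed block the adjusted p in repeated atrophy was 0.178.

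The remaining effectors gave wide intervals around 0. Mx2 was lowest in atrophy (2.69, 3.46 and 2.41 CPM) and was lower in the left than the right limb of all 3 atrophy rats, with a log2FC vs. control of -0.29 (95% interval -0.75 to 0.18). Ifit2 was at 23.0, 14.9 and 15.6 CPM in atrophy, 21.4, 14.98 and 17.4 CPM in recovery and 8.46, 17.5 and 21.2 CPM in repeated atrophy, beside 9.42 to 18.996 CPM in control. The repeated atrophy limbs of Ifit2 thus lay on both sides of the control range. Ifit3 was above all control limbs (3.77 to 8.82 CPM) in repeated atrophy animal 3 (12.9 CPM) and in atrophy animal 1 (9.52 CPM). It was at 5.86 and 5.92 CPM in the other repeated atrophy limbs. Its left limb was higher in 3 of 3 repeated atrophy rats, by 0.55 ± 0.11, with a log2FC vs. control of 0.33 (95% interval -0.25 to 0.91), and was also higher in 3 of 3 sham rats, by 0.41 ± 0.30. Rsad2 stayed between 1.13 and 5.15 CPM in all treated limbs and between 1.72 and 5.62 CPM in control. Its highest control value was 1 limb, the right limb of atrophy animal 2, and the next was at 3.47 CPM, below the limbs of atrophy animal 2 (5.15 CPM), repeated atrophy animal 3 (3.78 CPM) and recovery animal 1 (3.75 CPM). Mx1, with its rows summed, was at 4.32, 2.04 and 3.16 CPM in atrophy, 4.56, 2.58 and 5.55 CPM in recovery and 2.18, 2.32 and 4.73 CPM in repeated atrophy, with 1.08 to 4.67 CPM in control. The 6 Mx1 rows overlap at chr11:36799659-36825210 (rn7) and share reads, so single rows are uncertain. The row with the highest mean, used in the fit, was near 0 in some limbs, and the summed rows passed no comparison either.

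**Figure D2:**
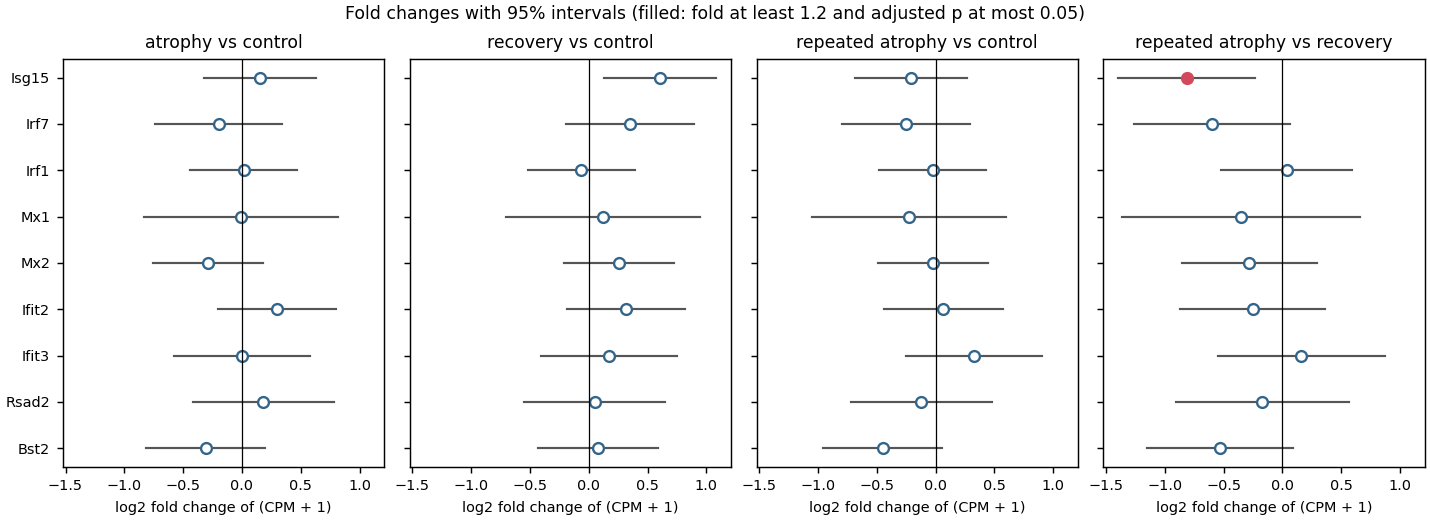
Log2 fold change of (CPM + 1) of each member with its 95% interval in 4 comparisons; the filled point passed the test. The 1 filled point is Isg15 in repeated atrophy vs. recovery (-0.82), and in the 3 comparisons with control the intervals cross 0 except for Isg15 in recovery (0.13 to 1.08).

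Genes upstream of the members were read from lists of the pathway. Of 14031 rows, 20.3% passed as higher and 2.33% as lower in atrophy vs. control, 4.40% and 3.33% in recovery, and 28.1% and 6.24% in repeated atrophy. After rescaling, these shares were 4.57% and 5.13%, 6.15% and 5.97%, and 13.3% and 12.0%, to be set beside the rescaled counts of the lists. Over all lists, which include the cell markers given below, 14 genes passed in atrophy, 17 in recovery and 23 in repeated atrophy. The 17 included 6 leukocyte, 6 fibroblast and 1 endothelial marker. The 14 included 1 muscle marker, and the 23 included 1 leukocyte and 2 muscle markers. With the rat as a fixed block, 0 of the 14 (adjusted p from 0.151 to 0.531, limma) and 0 of the 17 (0.0798 to 0.244) passed. With the rat as a random effect, 13 of the 14 (all but Jak2, adjusted p = 0.0554), 17 of the 17 and 23 of the 23 passed. In repeated atrophy 20 of the 23 passed with the fixed block, and the exceptions were Myd88 (adjusted p = 0.0941), Isg20 (0.0797) and Cxcl11 (0.0775). When any 1 TTX rat was left out, 0 of the 14 still passed in every case, 5 of the 17 (Ifitm1, Dpt, Lum, Col3a1 and Col1a1) and 12 of the 23 (Stat2, Socs3, Mavs, Tbk1, Tlr3, Ifi27l2b, Wars1, RT1-A1, B2m, Calr, S100a8 and Myh7). Without atrophy animal 1, none of the 14 passed.

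The signalling list (11 genes tested) had 3 higher in atrophy, 0 in recovery, and 4 higher and 1 lower in repeated atrophy. The 3 in atrophy were Jak2, Jak1 and Ptpn2. With the rat as a fixed block their log2FC was 0.30, 0.37 and 0.47, and none passed. After rescaling the counts were 0 in atrophy and 3 higher and 1 lower in repeated atrophy. In repeated atrophy the kinases Jak2 (log2FC 0.92 ± 0.23, adjusted p = 0.0056) and Jak1 (0.76 ± 0.19, adjusted p = 0.0045) and the transcription factor Stat2 (0.90 ± 0.21, adjusted p = 0.0037) rose, and all 3 also passed after rescaling (0.56, 0.38 and 0.53). The phosphatase Ptpn2 was the other gene that rose (0.76 ± 0.27), and it did not pass after rescaling (0.41). Socs3, a feedback inhibitor of cytokine receptors, fell by 0.78 ± 0.20 (adjusted p = 0.0055).

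Other signalling genes did not pass in any of the 3 comparisons. Irf9 had a log2FC of -0.21 in atrophy, 0.12 in recovery and -0.12 in repeated atrophy. Tyk2 gave 0.37, -0.16 and 0.50 and the feedback inhibitor Socs1 -0.18, 0.17 and -0.13. Usp18, the protease that removes Isg15 from proteins and restrains the receptor, gave 0.30, 0.48 and 0.50. The interferon genes on the list and Ifnar2 were not analysed here. Of the 5 receptor chains tested, Ifngr2 rose in atrophy (0.79 ± 0.16) and repeated atrophy (0.63 ± 0.16), the first of which passed after rescaling (0.43). Ifnar1 rose in atrophy (0.46 ± 0.16) but was at 0.10 after rescaling and did not pass. Ifngr1 did not pass, at 0.45, 0.22 and 0.28.

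Among 15 sensors and adaptors, 1 was higher and 2 lower in atrophy, and 2 were higher and 2 lower in repeated atrophy (after rescaling 0 and 2, and 1 and 3). Tlr3, the endosomal receptor for double-stranded RNA, fell by 0.79 ± 0.24 in atrophy and by 1.12 ± 0.24 in repeated atrophy. Its highest repeated atrophy limb (8.86 CPM) was below its lowest control limb (9.95 CPM). Mavs, the mitochondrial adaptor of the cytosolic RNA sensors, fell by 0.54 ± 0.13 and 0.86 ± 0.13, and both genes also passed as lower after rescaling. Tbk1, the kinase that activates Irf3, rose by 0.64 ± 0.19 in atrophy and 0.89 ± 0.19 in repeated atrophy, of which the second passed after rescaling (0.53). Myd88 rose in repeated atrophy (0.69 ± 0.22, not passing at 0.36 after rescaling), and Irf3 did not pass, at 0.22, -0.29 and 0.23. In recovery the calls were Tlr7 (1.05 ± 0.25) and Tlr9 (0.43 ± 0.13), which read endosomal RNA and DNA. Both calls were lost when any 1 recovery animal was left out. Tlr9 was near the floor, with a median of 0.0586 CPM and at most 0.827 CPM over the limbs outside sham animal 1.

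Other interferon-stimulated genes gave few calls. Of 38 on the type I list, 1 was higher in atrophy, 1 in recovery and 2 in repeated atrophy, with none lower; after rescaling the counts were 0 and 3 higher in atrophy and recovery, and 1 higher and 3 lower in repeated atrophy. Ifitm1, a membrane protein that blocks viral entry, rose by 0.94 ± 0.27 in atrophy and 1.48 ± 0.27 in recovery. Ifi27l2b rose by 1.81 ± 0.28 in repeated atrophy and passed after rescaling (1.46), and the exonuclease Isg20 rose by 0.63 ± 0.22 and did not (0.40). Of 4 genes of the Isg15 conjugation system, the E2 enzyme Ube2l6 rose in repeated atrophy (0.85 ± 0.24), which did not pass after rescaling (0.57). Of 15 interferon gamma-induced genes, the tryptophanyl-tRNA synthetase Wars1 rose in atrophy (0.71 ± 0.16) and repeated atrophy (1.02 ± 0.16), and the chemokine Cxcl11 in repeated atrophy (1.42 ± 0.45). After rescaling, the atrophy values of Ifitm1 (0.65) and Wars1 (0.34) did not pass and the others named for these lists in recovery and repeated atrophy did, apart from Isg20 and Ube2l6.

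Of 18 genes for MHC class I presentation, 3 rose in atrophy, 1 in recovery and 5 in repeated atrophy, and none fell. These counts were near the shares of all rows that passed as higher (20.3%, 4.40% and 28.1%). After rescaling the repeated atrophy counts were 3 higher and 1 lower, beside 13.3% and 12.0% of all rows. B2m, the invariant light chain of class I molecules, was at 432 to 743 CPM in control, 700 to 2181 CPM in atrophy, 1254 to 1671 CPM in recovery and 1546 to 3376 CPM in repeated atrophy. The recovery and repeated atrophy limbs were all above the control limbs. Its log2FC was 1.14 ± 0.28, 1.49 ± 0.28 and 2.19 ± 0.28 (adjusted p = 0.011, 0.0055 and 6.7e-05), and the last pair passed after rescaling (1.47 and 1.81). The heavy chains RT1-A1 (1.43 ± 0.24), RT1-A2 (1.13 ± 0.37) and RT1-CE16 (1.12 ± 0.31) rose in repeated atrophy, and are near-identical genes whose reads may be split uncertainly. After rescaling RT1-A1 passed (1.06) and RT1-A2 (0.76) and RT1-CE16 (0.74) did not. RT1-A1 also rose in atrophy (0.70 ± 0.24), which did not pass after rescaling (0.33), and Calr, a chaperone of class I assembly, rose in both (1.01 ± 0.18 and 0.83 ± 0.18), also after rescaling (0.64 and 0.45).

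Markers of other cells were read beside the members. Of 18 leukocyte markers tested, 0 rose in atrophy, 6 in recovery (10 after rescaling, 0 with the fixed block and 7 with the random effect) and 1 in repeated atrophy, with Adgre1 (1.62 ± 0.45) and Cd68 (1.41 ± 0.35), both of macrophages, in recovery and S100a8, of neutrophils, in repeated atrophy (0.98 ± 0.21). The summed level of the 19 leukocyte markers present was 66.5 to 213 CPM in control and 204 to 467 CPM in recovery. Of 7 fibroblast markers, 6 rose in recovery, with Col3a1 at 3.45 ± 0.55 and Col1a1 at 3.07 ± 0.61. Of 8 endothelial markers, Cldn5 fell by 1.00 ± 0.24 in recovery, and 5 were lower in repeated atrophy after rescaling. Of 10 skeletal muscle markers, the slow myosin Myh7 fell by 1.62 ± 0.34 in atrophy and 2.34 ± 0.34 in repeated atrophy, and Mb rose in the latter (1.01 ± 0.29, not passing at 0.63 after rescaling). Their summed level was 88688 to 219995 CPM over the 22 limbs outside sham animal 1. The part of these cells in the members' levels was not tested.

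Sham animal 1 stood apart from the other 11 rats in both limbs. Irf7 was at 76.1 and 81.9 CPM in its left and right limb, against 2.20 to 7.22 CPM in the other 22 limbs. Isg15 was at 23.3 and 18.5 CPM against 0.461 to 3.85 CPM elsewhere. Mx2 reached 49.9 and 57.4 CPM against at most 6.12 CPM, and summed Mx1 66.2 and 71.4 CPM against at most 5.55 CPM. The lower of its limbs was thus 10.5 times the highest other limb for Irf7, 8.16 times for Mx2 and 11.9 times for summed Mx1.

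The other members showed the same in this rat with smaller ratios. Rsad2 was at 23.5 and 25.9 CPM (4.19 times the highest other limb for the lower limb), Ifit3 at 39.8 and 38.0 CPM (2.93 times), Ifit2 at 54.9 and 52.8 CPM (2.30 times) and Bst2 at 72.3 and 75.8 CPM (2.27 times). Irf1 was at 42.9 and 40.2 CPM, 1.57 times the highest other limb. Both limbs exceeded the other 22 for 9 of 9 members, and were at least 2 times the highest for 8 of 9. Over 14134 rows these shares were 7.30% and 1.53%. In the other 11 rats, 6 to 696 rows had both limbs above all others and 0 to 15 rows by 2 times, and no member was among the former. The rat was singled out after its values were seen, so these counts are a description, with no test. Its libraries were as deep as the others (25800000 and 29100000 reads, inferred, beside 18900000 to 30900000 over all limbs), and its time label was atrophy, which no other sham rat had.

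Parts of the pathway around the members were above all other limbs in sham animal 1, and other parts mostly were not. Of the 38 other type I genes, 29 had both limbs above the other 22 and 18 by at least 2 times. They included the oligoadenylate synthetase genes, of which Oasl was at 10.4 and 13.6 CPM against at most 1.65 CPM elsewhere, and Oas1b at 8.48 and 9.42 CPM against at most 1.55 CPM. Usp18 (13.4 and 11.8 CPM, 3.10 times the highest other limb) and Irf9 (20.2 and 20.9 CPM, 1.83 times) were above all others. The sensor Zbp1 was at 5.01 and 3.96 CPM against at most 0.680 CPM. The counts above all others were 9 of 15 for sensors and adaptors, 8 of 15 for interferon gamma-induced genes, 8 of 18 for class I presentation, 4 of 11 for signalling and 1 of 5 for receptors. Among the 160 promoters of genes at least 2 times above all other limbs, 14.4% held the ISRE core and 8.75% the GAS motif.

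Some leukocyte genes were also above all other limbs in this rat, and others were not. Of 19 leukocyte markers, 7 had both limbs above the other 22, among them Nkg7, a granule protein of cytotoxic cells (36.5 and 31.4 CPM against at most 3.21 CPM), Cd8a (32.1 and 27.2 CPM against at most 4.77 CPM) and Klrd1, a receptor of natural killer cells (13.2 and 9.71 CPM against at most 2.52 CPM). The other 4 were myeloid markers: S100a9 (23.8 and 17.2 CPM, the lower 3.58 times the highest other limb), S100a8 (1.94 times), Itgam (1.07 times) and Siglec1 (1.01 times). The CD3 subunit genes Cd3e (0.427 and 0.172 CPM) and Cd3g (0.311 and 0.275 CPM), of T cells, lay inside the range of the other limbs (up to 1.46 and 1.42 CPM). The summed leukocyte level was 402 and 360 CPM, above every control limb. It lay inside the range of the other 22 limbs (66.5 to 467 CPM), whose highest value was a recovery limb. Chosen after their values were seen, the killing proteins Gzmb (68.9 and 59.3 CPM against at most 5.57 CPM) and Prf1 (85.7 and 82.0 CPM against at most 16.1 CPM) and the chemokine Ccl5 (102 and 73.3 CPM against at most 12.5 CPM) were also above all others, as was the neutrophil granule gene Ngp (4.85 and 6.19 CPM against at most 0.172 CPM). Of the red cell genes, the membrane protein gene Slc4a1 (12.2 and 11.7 CPM against at most 1.86 CPM), the globin chaperone gene Ahsp (3.07 and 2.34 CPM against at most 0.303 CPM) and Alas2, of haem synthesis (14.9 and 12.3 CPM against at most 11.2 CPM), exceeded all others in both limbs. The globin gene Hba-a1, at 943 and 680 CPM, did so in the left limb only (at most 901 CPM elsewhere). Of 8 endothelial markers, 7 were above all others, with 0 of 7 fibroblast and 0 of 10 muscle markers. The part of these cells in the result was not tested.

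**Figure D3:**
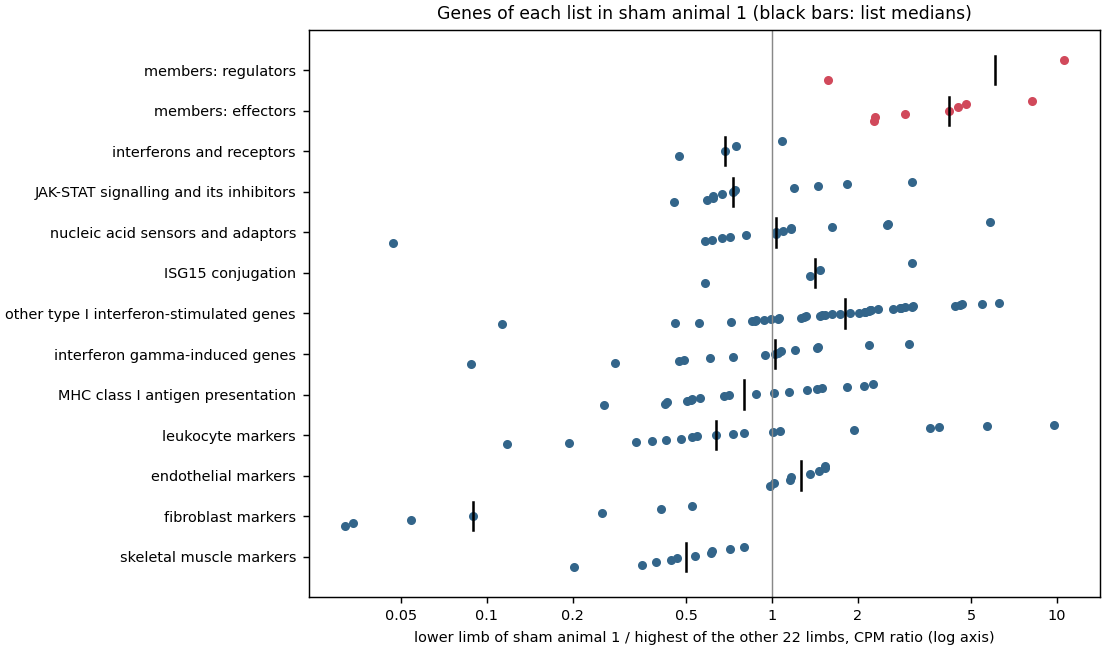
Ratio of the lower limb of sham animal 1 to the highest of the other 22 limbs (log axis) for each gene of the members and lists; bars are list medians and the grey line marks equality. The members and the other type I genes lie mostly to the right of the line (medians 6.06 for regulators, 4.19 for effectors and 1.80), and the fibroblast and muscle markers lie to its left.

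The fold changes of the members between sham left and the control or TTX-treated limbs rested on this rat. In sham left vs. control all 9 members had a positive log2FC, from 0.55 to 1.31, and none passed in limma (0% of 13822 rows did, with 1904 rows and 3 members at an unadjusted p under 0.05). Without sham animals 1, 2 and 3, the rows that passed were 0, 118 and 8 in limma, with 934, 3411 and 1463 at an unadjusted p under 0.05. In sham left vs. control without sham animal 1, the members ran from -0.27 to 0.31, 4 of 9 positive, and none passed. In sham left vs. sham right, blocked on the rat, the members ran from -0.22 to 0.41 and none passed, as for 0% of 13483 rows (576 at an unadjusted p under 0.05). There the members ran from -0.36 to 0.58 without sham animal 1, and none passed. Without sham animals 1, 2 and 3, 0 rows passed in each case in limma, with 253, 2411 and 210 at an unadjusted p under 0.05. Against sham left, all 9 had a negative log2FC in atrophy, recovery and repeated atrophy, with medians of -0.93, -0.71 and -1.07, and none passed, where 0.0212%, 1.89% and 8.23% of 14134 rows did. These shares also rested on single rats. In atrophy vs. sham left, 3 rows passed in the full fit, 884 without atrophy animal 2, 17 without sham animal 2, 1 without sham animal 1 and 0 in limma without atrophy animal 1, atrophy animal 3 or sham animal 3 (720, 1175 and 2497 at an unadjusted p under 0.05). In recovery vs. sham left, 267 passed, with 3, 31 and 100 without recovery animals 1, 2 and 3 and 2, 1674 and 2 without sham animals 1, 2 and 3. In repeated atrophy vs. sham left, 1163 passed, with 444 and 603 without repeated atrophy animals 2 and 3 and 413 without sham animal 1. Taken as differences within the rat, the counts were 0, 0 and 616 in limma, with 1031, 880 and 3760 rows at an unadjusted p under 0.05. Without sham animal 1 the medians were 0.03, 0.20 and -0.18 with no member passing, and without sham animal 3 Bst2 passed as lower in repeated atrophy (-1.47 ± 0.43, adjusted p = 0.037).

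Levels in both limbs of a rat were then compared. Over the other 11 rats the level of Irf7 in the left limb went with that in the right (Pearson r = 0.93, adjusted p = 0.0017; Spearman rho = 0.91, adjusted p = 0.0019; two-sided permutation tests, 9 relations). Without the 2 rats farthest from the median, r was 0.94. Irf1 (r = 0.69, adjusted p = 0.031; rho = 0.68, adjusted p = 0.077; permutation tests) and Bst2 (r = 0.69, adjusted p = 0.058; rho = 0.76, adjusted p = 0.038; permutation tests) each passed by 1 of the 2 measures, with r of 0.67 and 0.58 without the farthest 2 rats. The other 6 had r from -0.43 for Ifit2 to 0.51 for Isg15 and adjusted p of r from 0.232 to 0.461 (permutation tests; Mx1 by its fitted row). Left limbs differed in treatment between these rats, and no batch is given in the labels.

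**Figure D4:**
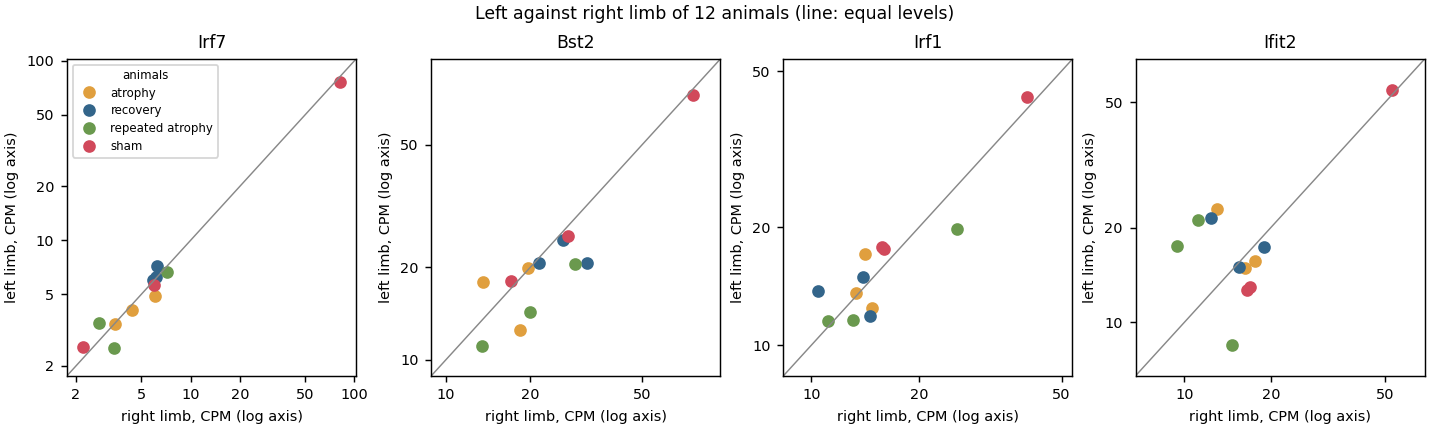
CPM in the left against the right limb (log axes) of each of 12 rats for Irf7, Bst2, Irf1 and Ifit2, coloured by the animal's group; the line marks equal levels. Irf7 points lie along the line over the whole range, Ifit2 points of the other 11 rats scatter across it, and sham animal 1 is the point at upper right.

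Likeness to the members was measured over 24 limbs as the correlation of each gene with the mean z-score of the 9. The 10 most alike genes that were not members were Slfn4, Oasl2, Gzmb, Septin1, Plcg2, Itgad, Nkg7, Gzma, Gfra3 and Rac2 (r from 0.94 to 0.96 over 24 limbs, and from 0.95 to 0.97 over the 12 right limbs). Over the other 22 limbs the same genes had r from 0.44 for Gfra3 to 0.79 for Rac2, and the top 10 became Serpinb9, Pik3cg, Slc1a5, Itgb2, Plek, Rac2, Dok2, Psmb10, Pik3cd and Fam107b (r from 0.77 to 0.84), of which 1 was shared. Between pairs of members the median r over 24 limbs was 0.85, and over 22 limbs it was 0.31, with 2 of 36 pairs above 0.6. The points share depth and animals, so these are descriptions.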

How the data were processed

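Whole tibialis anterior RNA was sequenced from both limbs of 12 rats. The authors worked in Partek Flow, where Bowtie2 2.2.5 removed contaminant reads and STAR placed the others on rn7; the counting step is not given in the sources used here. The values the authors deposited are CPM, since each column summed to 1000000. The design had assumed another scaling, and the tests for normalized values were used. A further 3 value columns matching no sample record were not used.

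The spacing of low values gave a depth of 18900000 to 30900000 reads per limb. Between 86.7% and 88.2% of low values were whole multiples of that step within 0.02, so reads were not treated as recovered. Of 14271 rows, 28 duplicates were dropped, and the row with the highest mean stood for each symbol.

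Rows above 0 in at least 3 fitted limbs were tested on log2(CPM + 1) with limma 3.58.1 (R 4.3.3, intensity trend), with no block; control and the 3 TTX groups shared 1 fit, and p-values were adjusted by Benjamini-Hochberg over all rows. Fold changes on this scale understate those of low genes. The labels pair both limbs of a rat. Deviations from group means correlated between limbs by 0.118 on average in TTX rats (negative in 3 of 9) and by 0.745 in sham rats. The fits were tested on simulated data. The members and gene lists were chosen with earlier results of these data known. All 9 members are named. From each list, up to 4 passing genes with the largest change in repeated atrophy and up to 2 in atrophy and recovery vs. control are named, beside fixed signalling genes, of which 1 is not reported here.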

Additional observations from a re-analysis of the deposited data

Results flagged for a closer look

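In 2 of 10 sets of 9 control limbs, 1 limb lay farther from its neighbour than Dixon's 95% critical value allows, where chance alone flags about 1 set in 20. For Irf1 the right limb of repeated atrophy animal 3 (25.6 CPM, beside 14.7 CPM for the next) had a gap of 0.717 of the range. For Rsad2 the right limb of atrophy animal 2 (5.62 CPM, beside 3.47 CPM) had a gap of 0.551.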

How the results depend on the processing

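The counts of members that passed were recomputed in 231 alternatives over 11 comparisons, and 215 gave the same count. In repeated atrophy vs. control the count was 1 in place of 0 (Bst2) after rescaling by a trimmed mean and after quantile normalization. In repeated atrophy vs. recovery it was 0 in place of 1 with pseudocounts of 0.1 and 10, 12 right limbs as control, only the groups compared, the animal as a fixed replicate block, and a mean of at least 10 CPM (where Isg15 was filtered out and 3 of 9 members were tested, so that count says nothing of its call), 2 after both rescalings, and 0 to 2 when 1 rat was left out. In repeated atrophy vs. sham left it was 0 to 1 when 1 rat was left out. The cause was not tested. Neither the fixed block nor the rat as a random effect changed another count of members. The fixed block left 0 and 9 calls over all rows in atrophy and recovery vs. control, and the random effect 3170 and 1174. No called log2FC turned direction, and 153 of 1998 values of uncalled members had another sign. Summing the Mx1 rows, rescaling, blocking or leaving out rats for the list counts, likeness over 22 limbs and taking each sham rat on its own were chosen after seeing the data. Rescaling moved the share of higher calls over all rows from 89.7% to 47.1% in atrophy vs. control, 81.8% to 52.5% in repeated atrophy vs. control, 18.7% to 53.1% in recovery vs. atrophy and 76.9% to 48.4% in repeated atrophy vs. recovery. With 3 limbs a group, a member that did not pass is not shown to be unchanged. 1 read was worth 0.0324 to 0.0530 CPM.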
